A study of Mus musculus with 12 samples.

Results

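The transcripts of 10 integrin subunit genes were followed in C2C12GFP cells on 4 culture surfaces. The genes were taken by name, as the subunits through which muscle cells hold on to collagen, laminin, and fibronectin. The rule itself uses no measured value, but the choice was made with earlier results of these data known. They are 7 α subunits (Itga1, Itga3, Itga4, Itga5, Itga6, Itga7, and Itgav) and 3 β subunits (Itgb1, Itgb3, and Itgb5). All 10 were found among the 55536 genes of the count table, and all 10 were among the 14499 genes that passed the filter on low counts.

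C2C12GFP is a mouse myoblast line that carries green fluorescent protein, and every sample came from this 1 line after a change to low-serum medium for differentiation. The groups were Control, Collagen I, Fibronectin, and Geltrex™, with 3 samples each. The control is labelled by that word alone, and no coating is described for it. Collagen I is the fibrillar collagen of connective tissue, fibronectin is an adhesive glycoprotein of plasma and loose matrix, and Geltrex™ is a basement membrane extract made up mainly of laminin, Collagen IV, and entactin. The day on which RNA was taken for sequencing is not given in the sources used here. Nothing in them says that the 3 samples of a group came from separate cultures, so p-values measure the spread between these samples, which may be technical.

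An integrin is a pair of 1 α and 1 β chain that spans the membrane and ties the matrix outside to actin inside. The α chain largely sets the ligand. α1 binds collagens, α3, α6, and α7 bind laminins, and α4, α5, and αv bind fibronectin, the last 2 of these through its RGD motif. β1 pairs with each α chain listed here, whereas β3 and β5 pair with αv, and α7β1 is the main laminin receptor of muscle fibers. The comparisons ask how the transcripts of these receptors differed between cells kept on collagen, on fibronectin, on a laminin-rich matrix, and in the control.

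The gene counts of a sample totalled 22520404 to 27351766. Levels are given as CPM, the count relative to a library size scaled by the TMM method, and levels of different genes are compared only as FPKM, which divides CPM by the exon length of the gene in kilobases. A gene passed the test where edgeR's quasi-likelihood test over all 14499 genes gave a Benjamini-Hochberg adjusted p of at most 0.05. The summed level of 10 myotube markers was 6821 to 7745 CPM in the control, 7393 to 7628 on Collagen I, 2203 to 2589 on fibronectin, and 3062 to 3345 on Geltrex™, and all 10 markers were lower on fibronectin and on Geltrex™ than in the control. The summed level of 5 cycling cell markers was 148 to 192 CPM, 128 to 136, 482 to 641, and 513 to 566 in the same order. In such bulk samples, fewer cells of a type and less RNA per cell cannot be told apart. Of 4 blood cell markers, Ptprc had at most 1 count and Adgre1 0 in any sample, whereas Cd68 had 17 to 35 and Itgb2 55 to 120. Of 4 endothelial markers, Kdr had at most 1 count, Cdh5 at most 2, and Pecam1 at most 8, whereas Tek had 13 to 89. The summed level of the blood cell markers was 3.12 to 4.03 CPM in the control, 4.46 to 5.13 on Collagen I, 3.08 to 4.10 on fibronectin, and 4.70 to 6.45 on Geltrex™, and that of the endothelial markers was 1.79 to 2.75, 0.966 to 2.34, 2.21 to 3.49, and 0.769 to 1.49 CPM. On Geltrex™ against the control, Itgb2 was higher (0.76, SE 0.19, adjusted p = 0.00662 in edgeR) and Tek lower (-1.24, SE 0.34, adjusted p = 0.0102) on the log2 scale, and their part in the differences of the subunits was not tested. The 3 Geltrex™ samples lay closer to each other than those of the other groups, with a chi-square per gene of 2.13 to 4.34 between pairs against 7.44 to 62.4 elsewhere, so they differed by more than sampling noise and were kept as 3 samples.

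On fibronectin, Itgb3 and Itgav were higher and Itga7 was lower than both in the control and on Collagen I. On Geltrex™, Itga4 was higher and Itgb5 lower than in the control, and Itga7 did not pass the test against it. Collagen I left all 10 subunits short of the threshold against the control. Itga1, Itga3, and Itga6 passed in none of the 6 comparisons.

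Against the control, Collagen I had 0 of 10 subunits higher and 0 lower in edgeR's quasi-likelihood test, beside 0.2% and 0.917% of the 14499 genes. Without adjustment, 2 subunits had a p under 0.05, for which the share of all genes is not given here. In DESeq2, 1 subunit passed, beside 462 of the 14499 genes. The groups did not overlap for 1 subunit, beside 17.3% of all genes. Fibronectin had 3 subunits higher and 1 lower than the control, beside 17.1% and 14.7% of all genes, and 4 without overlap, beside 41.6%. Geltrex™ had 1 higher and 1 lower, beside 16.4% and 16.6%, and 5 without overlap, beside 50.4%. These 3 comparisons use the same control samples and are therefore not independent of each other. The median log2 fold change of the 10 subunits was -0.090 on Collagen I, 0.11 on fibronectin, and 0.016 on Geltrex™, where the medians of all genes were -0.0031, -0.016, and -0.012.

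Between the coatings, fibronectin had 3 subunits higher and 1 lower than Collagen I, beside 22.9% and 22.1% of all genes, and 4 without overlap, beside 51.4%. Geltrex™ had 2 higher and 1 lower than Collagen I, beside 19% and 18.2%, and 6 without overlap, beside 54.7%. Against fibronectin, Geltrex™ had 1 higher and 3 lower, beside 9.06% and 10.3%, and 5 without overlap, beside 42.7%. The median log2 fold changes of the 10 subunits were 0.11, 0.20, and 0.016 in these comparisons, and those of all genes were -0.022, -0.026, and 0.0049.

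**Figure D1:**
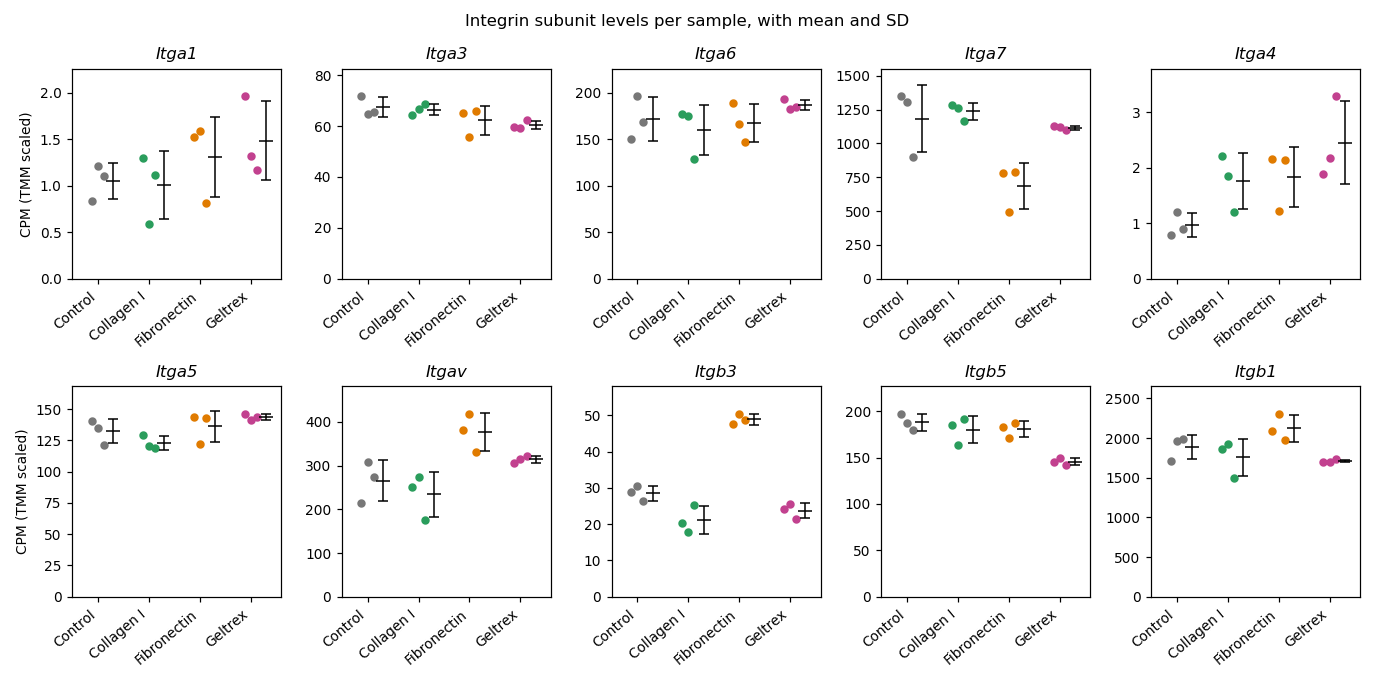
CPM of each of the 10 integrin subunits in every sample, with 1 panel per gene, 1 point per sample, and the mean with SD (n = 3) beside the points of each group. The 3 fibronectin samples lie above all others for Itgb3 (47.5 to 50.4 CPM) and below all others for Itga7 (493 to 786 CPM).

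Among the subunits for fibronectin and other RGD ligands, Itgb3 stood out by its level on fibronectin. It encodes the β3 chain, which joins αv in a receptor for vitronectin and fibronectin, and it lies on chromosome 11 (ENSMUSG00000020689, 104608000 to 104670476, plus strand, GRCm38). Its level in the control samples 1 to 3 was 29.0, 30.4, and 26.2 CPM. On Collagen I it was 20.2, 17.9, and 25.3 CPM, on fibronectin 47.5, 50.4, and 48.6 CPM, and on Geltrex™ 24.2, 25.6, and 21.4 CPM. The 3 fibronectin samples were above the other 9, and the Collagen I and Geltrex™ samples were all below the control samples but overlapped each other.

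The log2 fold change of Itgb3 on fibronectin was 0.78 over the control (SE 0.11, adjusted p = 8.04e-05 in edgeR), which is 1.71-fold. Over Collagen I it was 1.21 (SE 0.11, adjusted p = 8.28e-07), or 2.32-fold, and Geltrex™ against fibronectin gave -1.04 on the log2 scale (SE 0.11, adjusted p = 8.49e-06). These 3 calls were kept under every other fit that was run. The order of group means was fibronectin, control, Geltrex™, and Collagen I, and the steps from the control to Geltrex™ (adjusted p = 0.0862) and from Geltrex™ to Collagen I (adjusted p = 0.26) fell short of the threshold. Collagen I against the control gave -0.44 (SE 0.11, adjusted p = 0.0727), short of the threshold in edgeR, whereas DESeq2 gave an adjusted p of 0.0195 and edgeR with no filter on low counts 0.00982. Without Collagen I sample 3, the highest of that group, the value was -0.59 (adjusted p = 0.0131). Geltrex™ against the control gave -0.27 (SE 0.11) and passed with only the 2 groups fitted (adjusted p = 0.0323), without Collagen I sample 3 (adjusted p = 0.0256), and with that library, control sample 3, and fibronectin sample 2 left out (-0.32, adjusted p = 0.0116). Geltrex™ over Collagen I passed without Collagen I sample 3 (0.32, adjusted p = 0.0271) and with the same 3 libraries out (0.32, adjusted p = 0.0141).

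Itgav, the αv chain shared by the vitronectin and fibronectin receptors αvβ3 and αvβ5, was also highest on fibronectin. It lies on chromosome 2 (ENSMUSG00000027087, 83724397 to 83806916, plus strand), and 5.9% of its exon bases overlap Gm13684 on the opposite strand, whose reads cannot be told apart if counting ignored strand. Its level was 215, 307, and 274 CPM in the control, 252, 274, and 177 CPM on Collagen I, 381, 418, and 331 CPM on fibronectin, and 306, 316, and 322 CPM on Geltrex™. Each fibronectin sample was above each of the other 9, while the control samples overlapped those on Collagen I and on Geltrex™.

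On fibronectin, Itgav exceeded Collagen I by 0.69 on the log2 scale (SE 0.15, adjusted p = 0.00161 in edgeR), a call kept under every other fit that was run. Against the control the difference was 0.51 (SE 0.15, adjusted p = 0.0157). This call was lost without control sample 1 (0.38, adjusted p = 0.0812), without fibronectin sample 2 (0.43, adjusted p = 0.0693), and with library GC content in the model (0.41, adjusted p = 0.0896). Geltrex™ exceeded Collagen I by 0.43 (SE 0.15, adjusted p = 0.0328), and without Collagen I sample 3, the lowest of all, the value was 0.26 (adjusted p = 0.139). Leaving out any 1 Geltrex™ sample also ended this call (0.41 to 0.45, adjusted p = 0.0628 to 0.089). The order of means was fibronectin, Geltrex™, control, and Collagen I, and no step in it passed the test (adjusted p = 0.229, 0.221, and 0.588). The first step passed with only its 2 groups fitted (-0.26 for Geltrex™ against fibronectin, adjusted p = 0.0411) and the second with no filter on low counts (0.25, adjusted p = 0.0478).

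Itga4, the α4 chain that binds fibronectin and the cell surface protein VCAM-1, was scarce everywhere, with 20 to 73 counts per sample. It lies on chromosome 2 (ENSMUSG00000027009, 79255426 to 79333123, plus strand), and 8.04% of its exon bases overlap Cerkl on the opposite strand. Its level was 0.795, 1.21, and 0.892 CPM in the control, 2.21, 1.86, and 1.21 CPM on Collagen I, 2.15, 1.21, and 2.14 CPM on fibronectin, and 1.88, 2.18, and 3.29 CPM on Geltrex™. The fibronectin and Geltrex™ samples were above all control samples, although the lowest fibronectin sample exceeded the highest control sample by less than 0.01 CPM.

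The log2 fold change of Itga4 on Geltrex™ over the control was 1.33 (SE 0.31, adjusted p = 0.00405 in edgeR), or 2.51-fold. On fibronectin it was 0.92 (SE 0.32, adjusted p = 0.0382). The latter call was lost without control sample 1 or 3 or fibronectin sample 1 or 3 (0.80 to 0.87, adjusted p = 0.0916 to 0.129), with only the 2 groups compared (adjusted p = 0.0516), with a replicate block (0.91, adjusted p = 0.0517), and without control sample 3 and fibronectin sample 2 together (1.09, adjusted p = 0.0502). Collagen I gave a value of nearly the same size against the control, 0.86 (SE 0.32), that did not pass (adjusted p = 0.225). The order of means was Geltrex™, fibronectin, Collagen I, and control, and no step in it passed the test (adjusted p = 0.349, 0.877, and 0.225).

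Itga5 encodes α5, the partner of β1 in the classical fibronectin receptor, and passed in 1 of the 6 comparisons. It lies on chromosome 15 (ENSMUSG00000000555, 103344286 to 103366763, minus strand). The level was 140, 135, and 122 CPM in the control, 129, 120, and 119 CPM on Collagen I, 144, 122, and 143 CPM on fibronectin, and 146, 141, and 143 CPM on Geltrex™. On fibronectin it overlapped the control, differing from it by 0.041 on the log2 scale (SE 0.082, adjusted p = 0.739 in edgeR). Geltrex™ exceeded Collagen I by 0.23 (SE 0.083, adjusted p = 0.0421), and this call was lost without Collagen I sample 2 or 3, without any 1 of the Geltrex™ samples (adjusted p = 0.0774 to 0.107), with libraries scaled to their totals (adjusted p = 0.109), and with no filter on low counts (adjusted p = 0.0786). Fibronectin against Collagen I fell short of the threshold at 0.15 (SE 0.083, adjusted p = 0.149). It passed without fibronectin sample 2 (0.23, adjusted p = 0.0417), with control sample 3 left out as well (0.23, adjusted p = 0.026), with Collagen I sample 3 also out (0.20, adjusted p = 0.0346), and with library GC content in the model (0.26, adjusted p = 0.00692). The order of means was Geltrex™, fibronectin, control, and Collagen I, with no step that passed the test (adjusted p = 0.56, 0.739, and 0.553).

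Itgb5, the β5 chain of the vitronectin receptor αvβ5, was the subunit set apart by Geltrex™. It lies on chromosome 16 (ENSMUSG00000022817, 33829665 to 33949338, plus strand). Its level was 197, 188, and 179 CPM in the control, 186, 163, and 191 CPM on Collagen I, 183, 171, and 188 CPM on fibronectin, and 146, 149, and 142 CPM on Geltrex™. The 3 Geltrex™ samples were below all 9 others, which overlapped.

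On Geltrex™, Itgb5 fell by 0.37 on the log2 scale against the control (SE 0.078, adjusted p = 0.0018 in edgeR), by 0.30 against Collagen I (SE 0.078, adjusted p = 0.00632), and by 0.31 against fibronectin (SE 0.078, adjusted p = 0.0107). The last call was lost without Geltrex™ sample 3 (-0.29, adjusted p = 0.0549). With the 3 Geltrex™ samples averaged into 1, a check added because they were so alike, the differences were -0.36, -0.30, and -0.31 and none passed (adjusted p = 0.107, 0.178, and 0.275). The same averaging left Itga4 on Geltrex™ at 1.34 over the control (adjusted p = 0.0519). The order of Itgb5 means was control, fibronectin, Collagen I, and Geltrex™, and the steps between the first 3 did not pass (adjusted p = 0.612 and 0.965).

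Among the laminin-binding chains, Itga7 was by far the most abundant and the one that changed. It encodes α7, the laminin receptor chain of muscle fibers, and lies on chromosome 10 (ENSMUSG00000025348, 128933818 to 128958282, plus strand). Its level was 1350, 1302, and 897 CPM in the control, 1285, 1262, and 1164 CPM on Collagen I, 783, 493, and 786 CPM on fibronectin, and 1128, 1122, and 1099 CPM on Geltrex™. All fibronectin samples were below the other 9, and the Geltrex™ samples lay inside the range of the control and just below that of Collagen I.

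Itga7 on fibronectin fell by 0.78 on the log2 scale against the control (SE 0.16, adjusted p = 0.00174 in edgeR), that is, to 0.581 of it, and by 0.85 against Collagen I (SE 0.16, adjusted p = 0.000654). Geltrex™ exceeded fibronectin by 0.70 (SE 0.16, adjusted p = 0.00612). With the Geltrex™ samples averaged into 1, the value was 0.69 and fell short of the threshold (adjusted p = 0.158). Geltrex™ against the control gave -0.084 (SE 0.16, adjusted p = 0.731), and Collagen I against the control gave 0.064 (SE 0.16, adjusted p = 0.88). The order of means was Collagen I, control, Geltrex™, and fibronectin, in which the last step alone passed the test.

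Control sample 3 and fibronectin sample 2 had the lowest Itga7 of their groups, and they were also the libraries with the lowest mean GC content of counted genes, 47.5% and 47.2% against 47.7% to 48.1% in the other 10. The GC content of the longest Itga7 transcript was 57.8%, and those of Itga3, Itga5, and Itgb5 were 57.9%, 57.3%, and 57%. Library GC content comes from the same counts. In the 3 fibronectin libraries it was 47.74%, 47.21%, and 47.75%, below every Collagen I and Geltrex™ library, so this count-based measure is not independent of the coating. The paper also gives the GC content of the reads. By that measure, control sample 3 and fibronectin sample 2 were again the lowest, but the other fibronectin libraries lay above every Collagen I library. A fit with the count-based measure as a covariate cannot tell it apart from the coating, so the part of GC content in the differences of Itga7 was not tested. With this covariate, the difference on fibronectin was -0.47 against the control (adjusted p = 0.000417) and -0.55 against Collagen I (adjusted p = 7.89e-05). Geltrex™ over fibronectin gave 0.35 (adjusted p = 0.00804). These were smaller than the -0.78, -0.85, and 0.70 found without the covariate. Without both libraries, the first was -0.76 (adjusted p = 3.71e-05), and Itga7 on Geltrex™ then passed the test against the control at -0.25 (adjusted p = 0.022). Geltrex™ against Collagen I, at -0.15 (SE 0.16, adjusted p = 0.492) over all libraries, passed with the covariate (-0.20, adjusted p = 0.0217) and with Collagen I sample 3 left out beside both libraries (-0.19, adjusted p = 0.0172).

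Myotube markers were set beside Itga7. Their median log2 fold change was -2.05 on fibronectin and -1.53 on Geltrex™ against the control, with 10 of 10 lower in each, whereas Itga7 gave -0.78 and -0.084. Their part in the difference of Itga7 was not tested. Gene counts do not separate splice forms, so the known laminin-binding variants of α7 and the cytoplasmic variants of α6 are summed in their genes.

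**Figure D2:**
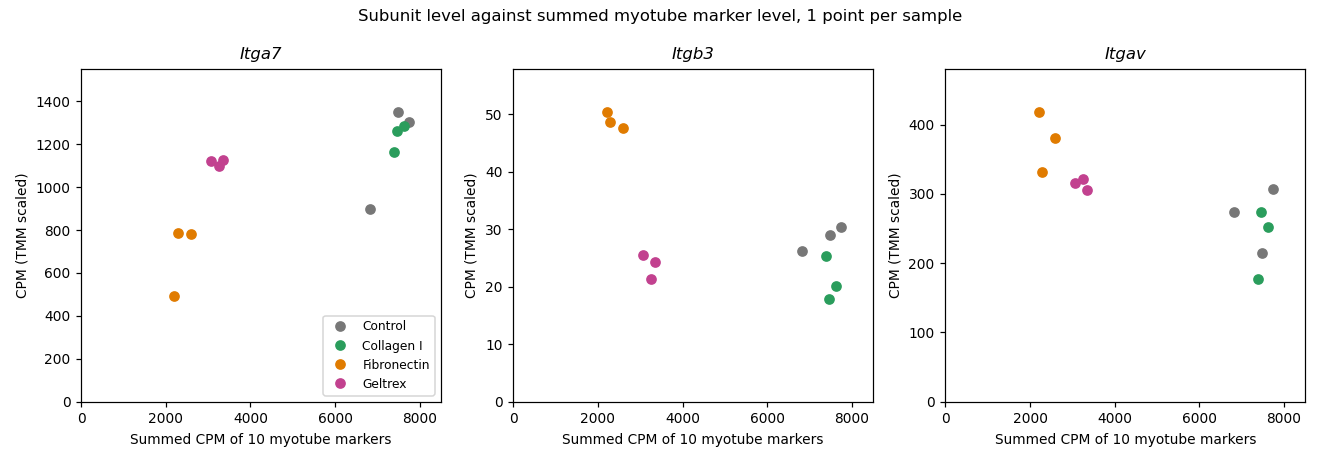
CPM of Itga7, Itgb3, and Itgav against the summed CPM of 10 myotube markers, 1 point per sample, colored by group. Fibronectin and Geltrex™ samples both lie at a low marker sum (2203 to 3345 CPM), where Itga7 is 493 to 786 CPM on fibronectin and 1099 to 1128 CPM on Geltrex™, and Itgb3 is 47.5 to 50.4 CPM and 21.4 to 25.6 CPM.

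The other laminin-binding chains passed in no comparison. Itga6 encodes α6, a laminin receptor chain of myoblasts and many epithelia (ENSMUSG00000027111, chromosome 2, 71745616 to 71858416, plus strand), and its group means were 172 ± 23.5 CPM in the control, 160 ± 26.9 on Collagen I, 168 ± 20.6 on fibronectin, and 187 ± 5.49 on Geltrex™ (SD, n = 3). Itga3 encodes α3, best known from epithelial basement membranes (ENSMUSG00000001507, chromosome 11, 95044474 to 95076801, minus strand), and its means were 67.3 ± 3.93, 66.5 ± 2.21, 62.2 ± 5.62, and 60.4 ± 1.69 CPM in the same order. The largest difference of Itga6 was 0.22 on the log2 scale (Geltrex™ over Collagen I, SE 0.12, adjusted p = 0.175), and that of Itga3 was -0.16 (Geltrex™ against the control, SE 0.080, adjusted p = 0.156). The order of means ran from Geltrex™ to Collagen I for Itga6 and from the control to Geltrex™ for Itga3, with no step that passed the test.

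Itga1, the collagen-binding chain among the 10, was scarce on all surfaces, Collagen I included. It lies on chromosome 13 (ENSMUSG00000042284, 114953096 to 115101964, minus strand), and 3.68% of its exon bases overlap Gm49395 on the same strand. It had 16 to 46 counts per sample, or 0.835, 1.21, and 1.10 CPM in the control, 1.30, 0.595, and 1.12 CPM on Collagen I, 1.52, 1.59, and 0.816 CPM on fibronectin, and 1.97, 1.32, and 1.17 CPM on Geltrex™. All groups overlapped, and Collagen I against the control gave -0.080 on the log2 scale (SE 0.35, adjusted p = 0.937 in edgeR). The SE of this gene was 0.33 to 0.35 on the log2 scale in the 6 comparisons, and its largest difference, 0.58 for Geltrex™ over Collagen I, did not pass (adjusted p = 0.198).

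Other α chains known to bind collagen, which are outside the 10, were set beside it. Itga10 was the most abundant of them per length, with 8.11 to 11.04 FPKM in the control, 10.1 to 10.9 on Collagen I, 2.22 to 4.25 on fibronectin, and 3.01 to 3.23 on Geltrex™, where Itga1 had 0.032 to 0.106 FPKM over all samples. Itga10 was lower on fibronectin (log2 fold change -1.51, SE 0.17, adjusted p = 6.09e-06 in edgeR) and on Geltrex™ (-1.57, SE 0.17, adjusted p = 3.13e-06) than in the control. Its difference between Collagen I and the control was 0.19 (SE 0.16, adjusted p = 0.603). Itga11 had 0.30 to 0.744 FPKM and Itga2 had 1 to 5 counts per sample, and both were chosen for display after their values were seen.

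**Figure D3:**
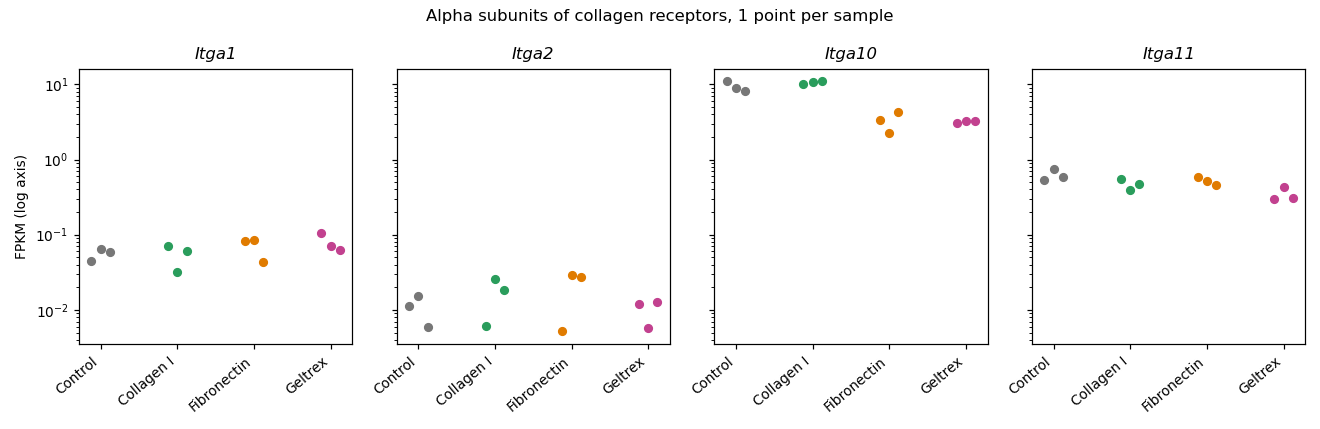
FPKM (log axis) of the collagen-binding α chains Itga1, Itga2, Itga10, and Itga11, 1 point per sample. Itga10 lies at 8.11 to 11.04 FPKM in the control and on Collagen I and at 2.22 to 4.25 FPKM on fibronectin and Geltrex™, and Itga1 lies between 0.032 and 0.106 FPKM on every surface.

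Itgb1, the β1 chain that all 7 α chains can use, was the most abundant subunit and moved within a narrow range. It lies on chromosome 8 (ENSMUSG00000025809, 128685654 to 128733200, plus strand). Its level was 1709, 1962, and 1991 CPM in the control, 1859, 1928, and 1495 CPM on Collagen I, 2086, 2305, and 1978 CPM on fibronectin, and 1697, 1704, and 1731 CPM on Geltrex™. Fibronectin samples were above all Collagen I and Geltrex™ samples and overlapped the control.

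The log2 fold change of Itgb1 on fibronectin was 0.27 over Collagen I (SE 0.10, adjusted p = 0.0405 in edgeR), and Geltrex™ was at -0.31 against fibronectin (SE 0.10, adjusted p = 0.0418). Both calls rested near the threshold. The first was lost in 13 of the alternatives, among them leaving out Collagen I sample 3 (0.16, adjusted p = 0.179), fibronectin sample 1 (0.29, adjusted p = 0.0734) or 2 (0.21, adjusted p = 0.146), or any 1 Geltrex™ sample (adjusted p = 0.0553 to 0.0578). The second was lost in 10, among them leaving out fibronectin sample 2 (-0.25, adjusted p = 0.158), fibronectin sample 1, any 1 Geltrex™ sample, control sample 2, or Collagen I sample 1. No step in the order fibronectin, control, Collagen I, and Geltrex™ passed the test (adjusted p = 0.219, 0.666, and 0.772).

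**Figure D4:**
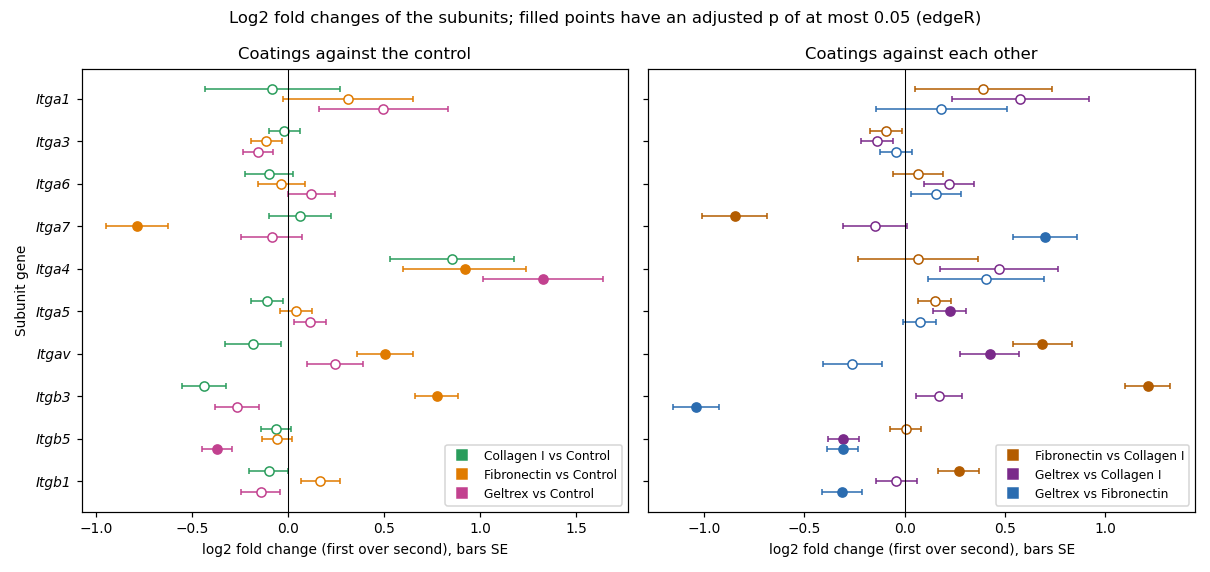
Log2 fold change with SE of the 10 subunits, on the left for each coating against the control and on the right for the coatings against each other, with filled points where the adjusted p in edgeR was at most 0.05. Itgb3 lies at 0.78 and Itga7 at -0.78 on fibronectin against the control, and no point is filled for Collagen I against the control.

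The makeup of the α chains was described per length, as the share of each in the summed FPKM of the 7. Itga7 made up 63.5% ± 5.18 (SD, n = 3) of the α transcripts in the control, 66.8% ± 1.27 on Collagen I, 47.4% ± 6.69 on fibronectin, and 60.6% ± 0.527 on Geltrex™. By sample, it was 68.2%, 64.3%, and 58.0% in the control and 49.9%, 39.8%, and 52.5% on fibronectin. Every fibronectin sample was below every other sample.

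Itgav moved the other way, with 10.97% ± 2.61 in the control, 9.44% ± 1.51 on Collagen I, 20.1% ± 4.68 on fibronectin, and 12.8% ± 0.415 on Geltrex™. The fibronectin samples held 18.3%, 25.5%, and 16.7%, above the other 9. Itga5 held 11.8%, 10.9%, 15.6%, and 12.8% on average in the same order, Itga6 8.42%, 7.72%, 10.6%, and 9.09%, and Itga3 5.22%, 5.10%, 6.17%, and 4.64%. Itga4 and Itga1 held less than 0.1% each in every group mean.

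By ligand class, the laminin-binding chains together held 77.2% ± 3.24 in the control, 79.6% ± 0.965 on Collagen I, 64.2% ± 5.08 on fibronectin, and 74.3% ± 0.402 on Geltrex™. The fibronectin-binding chains α4, α5, and αv held 22.8% ± 3.23, 20.4% ± 0.97, 35.8% ± 5.07, and 25.7% ± 0.41. The fall in the share of the laminin class on fibronectin went with a lower total. The summed α FPKM was 177 ± 21.6 there, against 229 ± 32.5 in the control, 229 ± 15.9 on Collagen I, and 228 ± 1.56 on Geltrex™. In absolute terms, laminin-binding chains were at 114 ± 22.0 FPKM on fibronectin against 177 ± 31.2 in the control, and fibronectin-binding chains at 62.8 ± 2.53 against 51.6 ± 3.99. These shares are given as descriptions and were not tested. Lengths from the longest transcript in place of all exons gave Itga7 70.4%, 73.4%, 55.1%, and 67.6%, with fibronectin again the lowest.

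**Figure D5:**
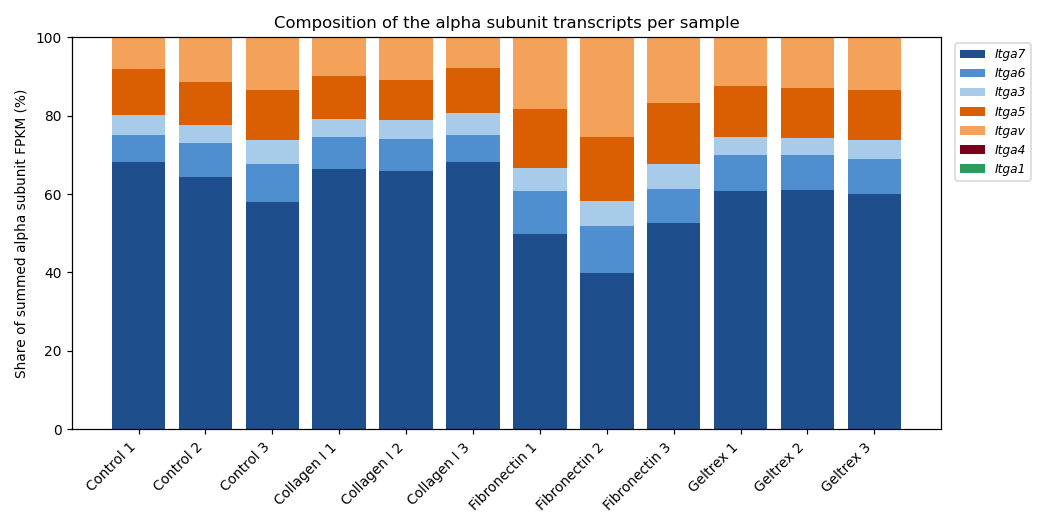
Share of each α subunit in the summed FPKM of the 7 α subunits, 1 bar per sample and 1 color per gene. Itga7 takes 39.8% to 52.5% of the bars of the fibronectin samples and 58.0% or more of all others, and Itga4 and Itga1 are too scarce to be visible.

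Among the β chains, Itgb1 held 88.9% ± 1.29 of the summed FPKM in the control, 88.7% ± 2.19 on Collagen I, 89.8% ± 1.04 on fibronectin, and 90.3% ± 0.342 on Geltrex™. Itgb3 held 0.933% ± 0.104, 0.753% ± 0.226, 1.43% ± 0.0705, and 0.867% ± 0.0828. Itgb5 held 10.2% ± 1.20, 10.6% ± 1.96, 8.82% ± 0.979, and 8.83% ± 0.26. Even at its highest, on fibronectin, Itgb3 was at 8.28 ± 0.242 FPKM, below the 50.8 ± 2.39 FPKM of Itgb5 and the 520 ± 40.8 FPKM of Itgb1 on the same surface.

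The remaining integrin subunits numbered 17, of which 10 were tested. On fibronectin, 0 were higher and 4 lower than in the control, beside 17.1% and 14.7% of all genes. There were 1 higher and 5 lower on Geltrex™, beside 16.4% and 16.6%, and 0 of either on Collagen I, beside 0.2% and 0.917%. Beside Itga10, Itga8, a chain for RGD ligands such as nephronectin, was at 7.16 ± 1.98 CPM in the control, 4.98 ± 0.957 on Collagen I, 3.62 ± 0.26 on fibronectin, and 1.40 ± 0.0885 on Geltrex™. Its log2 fold change against the control was -0.99 on fibronectin (SE 0.20, adjusted p = 0.00128 in edgeR) and -2.35 on Geltrex™ (SE 0.22, adjusted p = 9.10e-07). Itgb6, another partner of αv, was at 16.4 ± 1.73 CPM in the control and 7.68 ± 0.0419 on fibronectin, or -1.09 on the log2 scale (SE 0.15, adjusted p = 5.85e-05). It was also lower than in the control on Geltrex™, at 10.7 ± 1.08 CPM (-0.61, SE 0.15, adjusted p = 0.00472). On Collagen I it was at 13.5 ± 3.34 CPM and did not pass (-0.28, SE 0.15, adjusted p = 0.384). Of the other partners of αv on fibronectin against the control, Itgb3 was higher, and Itgb1 (0.17, SE 0.10, adjusted p = 0.219) and Itgb5 (-0.057, SE 0.078, adjusted p = 0.612) did not pass. Itgb8, named here after its values were seen, lay just short of the threshold (0.47, SE 0.18, adjusted p = 0.0536), with 32.2 ± 7.99 CPM in the control and 44.7 ± 5.48 on fibronectin.

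Of 13 cytoplasmic activators, inhibitors, and membrane partners of integrins, such as talins and tetraspanins, 11 were tested. Fibronectin had 1 higher and 2 lower than the control, beside 17.1% and 14.7% of all genes. Geltrex™ had 3 and 3, beside 16.4% and 16.6%, and Collagen I had 0 and 0, beside 0.2% and 0.917%. Their median log2 fold change was -0.19 on fibronectin and 0.00081 on Geltrex™. Itgb1bp2, the muscle protein melusin that binds the β1 tail, was at 31.4 ± 0.503 CPM in the control, 35.3 ± 2.95 on Collagen I, 12.6 ± 1.88 on fibronectin, and 16.6 ± 0.779 on Geltrex™. It was lower than in the control on fibronectin (log2 fold change -1.31, SE 0.11, adjusted p = 2.28e-07) and on Geltrex™ (-0.92, SE 0.10, adjusted p = 5.32e-06).

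Ligands of these receptors that the cells themselves transcribe numbered 18, of which 16 were tested. Fibronectin had 8 higher and 2 lower than the control, beside 17.1% and 14.7% of all genes. Geltrex™ had 9 and 2, beside 16.4% and 16.6%, and Collagen I had 0 and 2, beside 0.2% and 0.917%. Tnc, encoding tenascin-C, was at 85.8 ± 6.18 CPM in the control, 57.2 ± 8.79 on Collagen I, 199 ± 7.47 on fibronectin, and 163 ± 7.45 on Geltrex™. Against the control it was lower on Collagen I (log2 fold change -0.59, SE 0.098, adjusted p = 0.00768 in edgeR) and higher on fibronectin (1.21, SE 0.098, adjusted p = 2.32e-07). Thbs1, encoding thrombospondin-1, followed the same directions, with -0.57 on Collagen I (SE 0.13, adjusted p = 0.0444) and 1.003 on Geltrex™ (SE 0.13, adjusted p = 2.06e-05). Col1a1, a chain of Collagen I itself, was lower than in the control on Geltrex™, at -1.19 on the log2 scale (SE 0.12, adjusted p = 2.18e-06). It was also lower on fibronectin (-0.72, SE 0.12, adjusted p = 0.000334) and did not pass the test on Collagen I (-0.35, SE 0.12, adjusted p = 0.175). Col1a2, the other chain of Collagen I, is named here after its values were seen and went the other way. It was higher than in the control on Geltrex™ (0.38, SE 0.089, adjusted p = 0.00399) and on fibronectin (0.25, SE 0.089, adjusted p = 0.0404).

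Matrix receptors that are not integrins numbered 5, all tested. Fibronectin had 3 higher and 2 lower than the control, beside 17.1% and 14.7% of all genes. Geltrex™ had 3 and 1, beside 16.4% and 16.6%, and Collagen I had 0 and 2, beside 0.2% and 0.917%. Cd44, a receptor for hyaluronan, was at 644 ± 81.9 CPM in the control, 409 ± 29.0 on Collagen I, 1239 ± 110 on fibronectin, and 1113 ± 5.92 on Geltrex™, and differed from the control by -0.66 (SE 0.098, adjusted p = 0.00391 in edgeR), 0.94 (SE 0.099, adjusted p = 3.5e-06), and 0.79 (SE 0.098, adjusted p = 1.51e-05) on the log2 scale. Sdc4, the syndecan that binds fibronectin beside integrins and also marks satellite cells, was at 225 ± 21.7, 171 ± 3.93, 295 ± 23.7, and 381 ± 13.2 CPM in the same order. It was lower than in the control on Collagen I (-0.39, SE 0.084, adjusted p = 0.0339). It was higher on fibronectin (0.39, SE 0.084, adjusted p = 0.00229) and on Geltrex™ (0.76, SE 0.084, adjusted p = 4.55e-06). Sdc4 was 1 of 5 markers of undifferentiated or reserve myoblasts. Of these, 2 were higher and 1 lower on Geltrex™ than in the control, beside 16.4% and 16.6% of all genes, with a median log2 fold change of -0.050. On fibronectin 2 were higher and 0 lower (median 0.078), beside 17.1% and 14.7%. On Collagen I it was 0 and 1 (median -0.39), beside 0.2% and 0.917%. Sdc4 itself is counted among the higher markers on Geltrex™ and fibronectin and is the lower marker on Collagen I.

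The genes most like the 2 subunits with the widest range of group means were sought among 12319 genes, by the root mean square difference of centered log2 CPM over the 12 samples. For Itgb3 they were Lef1 (0.164), Slc1a4 (0.166), and 2810430I11Rik (0.17). Lef1, a transcription factor of Wnt signaling, had mean levels of 8.68, 5.96, 15.1, and 6.52 CPM in the control, on Collagen I, on fibronectin, and on Geltrex™. For Itga4 they were AU018091 (0.281), Hmcn1 (0.302), and Cavin2 (0.323), and Hmcn1, which encodes the matrix protein hemicentin-1, had means of 33.7, 47.2, 74.5, and 85.5 CPM. The distances were larger for Itga4, which had 20 to 73 counts per sample, and the part of counting noise in them was not tested.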

How the data were processed

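RNA was sequenced from C2C12GFP cells in 4 groups of 3 samples. The authors deposited raw counts per gene and sample, neither pooled nor normalized, made with Trimmomatic for trimming, HISAT2 for alignment, and featureCounts for counting. Versions, genome build, and strand setting are not given in the sources used here. All 55536 gene identifiers were found in GENCODE M21 (GRCm38), which gave names, positions, and exon lengths.

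Counts were tested in R 4.3.3 with edgeR 4.0.16: filterByExpr (minimum count 10, minimum total 15), TMM, and 1 quasi-likelihood fit over 12 samples with 8 residual degrees of freedom, giving 6 comparisons with Benjamini-Hochberg adjustment over 14499 genes. SE is the log2 fold change divided by the root of F, and a prior count of 2 was used for log2 CPM. FPKM was computed from these CPM values and the union of exons. The script was tested on simulated data for Geltrex™ against the control over 14499 genes, of which 200 were changed. It recovered 81% of genes changed 2-fold and 90% of those changed 4-fold, with 11 false calls among 182. In the measured data 4786 genes passed in this comparison. The simulation therefore does not measure how well smaller differences of the subunits were found.

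The 10 subunits and the gene lists were chosen with earlier results of these data known. All 10 subunits are named. From each list, at most 4 genes are named by rule, by largest fold change, among those with a mean of at least 1 CPM that passed the test at 2-fold or more in 1 or more comparisons. Itgb8 and Col1a2 were named outside this rule, after their values were seen. Alternatives were DESeq2 1.42.0, RLE normalization, library totals, no filter, at least 10 counts in every sample, only the groups compared, a replicate block, each sample left out, stricter thresholds, and the longest transcript as gene length. Added after seeing the data were leaving out 2 or 3 libraries, library GC content (the count-weighted mean over genes) as a covariate, and the Geltrex™ samples averaged into 1. Sequences of the subunits are not shown here.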

Additional observations from a re-analysis of the deposited data

How the results depend on the processing

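Of the log2 fold changes of the 10 subunits recomputed under the alternatives, 1270 kept their direction and side of the threshold, 54 no longer passed, 19 newly passed, and 37 changed direction. The number of subunits that passed was 0 for Collagen I against the control, 4 for fibronectin against the control, 2 for Geltrex™ against the control, 4 for fibronectin against Collagen I, 3 for Geltrex™ against Collagen I, and 4 for Geltrex™ against fibronectin. For Collagen I against the control it was 1 with DESeq2, 1 with no filter on low counts, and 1 with control 3, fibronectin 2, and Collagen I 3 left out (3 libraries out). For fibronectin against the control it was 2 with control 3 and fibronectin 2 left out (2 libraries out), 0 at 2-fold, and 2 at an adjusted p of 0.01. For Geltrex™ against the control it was 4 with 3 libraries out, 0 with the Geltrex™ samples averaged into 1, and 1 at 2-fold. Fibronectin against Collagen I gave 1 at 2-fold. Geltrex™ against Collagen I gave 0 when averaged, 0 at 2-fold, and 1 at an adjusted p of 0.01. Geltrex™ against fibronectin gave 1 when averaged, 1 at 2-fold, and 2 at an adjusted p of 0.01. When samples were dropped 1 at a time, the numbers ran from 0 to 1 for Collagen I against the control (1 without Collagen I sample 3), 2 to 4 for fibronectin against the control (2 without control sample 1), 1 to 3 for Geltrex™ against Collagen I (1 without any 1 Geltrex™ sample), and 2 to 4 for Geltrex™ against fibronectin (2 without Geltrex™ sample 3). Averaging leaves 1 Geltrex™ value, which is assumed to vary like the other groups.

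All changes of direction were in differences that did not pass the test. For Collagen I against the control, 3 libraries out gave 0.020 for Itga6, -0.059 for Itga7, 0.011 for Itgav, and 0.045 for Itgb1, and 2 libraries out gave -0.10 for Itga7. With library GC content in the model, Itgb5 was 0.0073 on fibronectin against the control and Itga5 was -0.057 on Geltrex™ against fibronectin. For fibronectin against Collagen I, 3 libraries out gave 0.0018 for Itga3 and -0.063 for Itga6, and Itgb5 was -0.035 with library totals, -0.018 where genes needed 10 counts in all samples, and -0.00053 with only the 2 groups. With each sample left out, the direction changed for Collagen I against the control in Itga1 (-0.31 to 0.20), Itga3 (-0.049 to 0.031), Itga6 (-0.19 to 0.025), Itga7 (-0.10 to 0.17), and Itgb5 (-0.12 to 0.0063). It also changed for fibronectin against the control in Itga5 (-0.014 to 0.12) and Itga6 (-0.12 to 0.084), for fibronectin against Collagen I in Itga4 (-0.14 to 0.29), Itga6 (-0.072 to 0.16), and Itgb5 (-0.058 to 0.046), and for Geltrex™ in Itga7 against the control (-0.25 to 0.022), Itgb1 against Collagen I (-0.15 to 0.034), and Itga1 against fibronectin (-0.066 to 0.34). The cause was not tested.

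With the longest transcript as gene length, the shares of α transcripts in the control, on Collagen I, on fibronectin, and on Geltrex™ were 3.38%, 3.27%, 4.19%, and 3.03% for Itga3, 7.28%, 6.63%, 10.08%, and 7.91% for Itga5, and 70.4%, 73.4%, 55.1%, and 67.6% for Itga7. Itga6 was 8.82% on Collagen I, 12.8% on fibronectin, and 10.6% on Geltrex™, Itgav was 7.85% on Collagen I and 10.8% on Geltrex™, and Itga4 was 0.024% in the control. For samples with the same replicate number, the correlations of their deviations were -0.154, 0.184, and -0.0368 for Collagen I and control. They were 0.0473, 0.169, and 0.225 for fibronectin and Collagen I. The means were -0.0024 and 0.147, against 0.0013 and -0.073 for samples with different numbers. In the remaining comparisons, the mean for the same number was -0.047 to 0.0066. The largest mean for the same number was thus the 0.147 of fibronectin and Collagen I. The deviations are from each group's own mean. The values for different numbers therefore largely follow from those for the same number and are no separate yardstick. Whether same-numbered samples were paired is not stated. A replicate block ended 1 call of the subunits, Itga4 on fibronectin against the control (0.91, adjusted p = 0.0517 in edgeR), and changed no other. Over all genes, 162 passed for Collagen I against the control in edgeR, 163 with the block, and 462 with DESeq2. Depth limits Itga1 and Itga4 most, with at most 46 and 73 counts in a sample.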
